A study of Rattus norvegicus with 98 samples.

Results

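The insular cortex libraries are the H3K27ac peak lists of male Long-Evans rats whose labels name the region InsularCortex. They were chosen by that label, with the like length of their lists already known. They number 4 of the 98 samples of the series, or 4 of the 94 that come with a peak list. The FT group drank fluoxetine at 18 mg per kg of body weight per day for 6 weeks from an age of 2 months. The Sham group drank water. Each group holds replicates 1 and 2, and each replicate is a pool of tissue punches from several animals, so the spread between replicates is a spread between pools. No transgene or lesion is named for either group.

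H3K27ac is an acetylated lysine on the tail of histone H3 that marks active promoters and enhancers. Enzymes such as p300 and CBP write it and histone deacetylases remove it, so its genomic map is a readout of which regulatory elements are in use. The insular cortex is the part of neocortex that receives taste and visceral input and takes part in interoception and emotion. Fluoxetine blocks the serotonin transporter, and the cortex receives serotonergic fibres from the raphe nuclei. In bulk tissue, fewer cells of a type and less acetylation per cell cannot be told apart.

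The depth of the libraries is unknown because the lists hold peaks and not reads. Replicate 2 lists were the longer in both treatments. The Sham lists held 50041 peaks in replicate 1 and 53135 in replicate 2, and the FT lists held 48578 and 53706. The groups therefore overlapped, with a mean of 51588 ± 2188 peaks in Sham and 51142 ± 3626 in FT (SD, n = 2). The log2 ratio of FT to Sham was -0.01 (exact permutation test over the 3 ways to split 4 libraries, two-sided, p = 1, where the smallest possible p is 0.333). No comparison of 2 against 2 libraries can pass a threshold of 0.05 in this test. Peaks covered 78.2 and 84.5 Mb of the genome in the Sham replicates and 77.1 and 85.3 Mb in the FT replicates. The log2 ratio of covered length was -0.003 (exact permutation test, two-sided, p = 1).

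The 4 lists had the same median peak width. It was 1600 bp, and the lower and upper quartiles were 1100 and 2000 bp. Mean width was 1563 and 1591 bp in Sham and 1587 and 1588 bp in FT. Domains of at least 5 kb were few. Sham replicates held 7 and 8 of them and FT replicates 9 and 10, so the groups did not overlap in this count, at 0.0140% to 0.0186% of a list. Peaks of 500 bp or less made up 1.37% and 1.58% of the Sham lists and 1.24% and 1.58% of the FT lists.

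Caller scores went with the replicate number rather than with treatment. The maxScore of a peak, the highest value of the caller's filter in it, had a median of 140 in Sham replicate 1 and 129 in FT replicate 1, against 99.7 in Sham replicate 2 and 104 in FT replicate 2. The Norm-tag-count, a whole number on the caller's own scale, had medians of 6 and 5 in the replicates numbered 1 and 4 in both replicates numbered 2. The share of peaks at the upper limit of 200 in −log10 p was 5.12% and 3.19% in Sham and 3.13% and 4.32% in FT. Tests of scores were for this reason made on ranks within a library, and raw scores are printed beside them as deposited. Whether the shift in scores takes part in the results below was not tested.

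**Figure D1:**
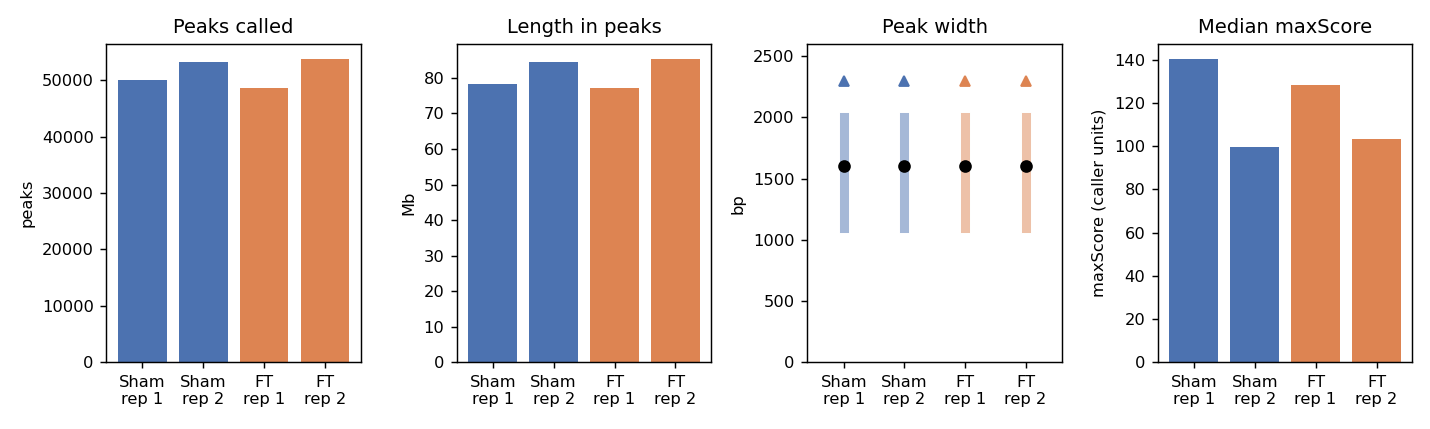
Peak number, covered length in Mb, peak width in bp and median maxScore (caller units) of the 4 insular cortex lists, Sham in blue and FT in orange, 1 bar or column per library. In the width panel the black dot is the median (1600 bp in all 4), and the thick line spans the quartiles; the replicates numbered 2 have more peaks and lower scores in both treatments.

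The region label was checked against the other lists, each cut to the 19378 best peaks by maxScore, the length of the shortest list of the series. Similarity was the Jaccard index, the windows occupied in both libraries as a share of those occupied in either. Each of the 4 libraries was nearest to another insular library, at 0.760 to 0.789, and all 3 insular partners ranked above any library of another region. The nearest library of another region came from the cingulate cortex (CGC) in each case, at 0.730 to 0.750. The mean index of insular libraries was 0.771 ± 0.0181 with each other (SD over ordered pairs), 0.708 with CGC and 0.597 with CMA, the next region in the order. Sham replicate 2 had the lowest nearest-neighbour index of the 4, 0.760. The HB libraries were last in the order, with a mean of 0.269 ± 0.287 and a lowest value of 0.000734. At least 1 HB list thus shared almost no windows with an insular list, and HB lists are kept in the counts of all other libraries below.

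A core of acetylated sites was shared by all 4 libraries. Occupancy was scored in consecutive 1 kb windows, which counted as occupied when at least 50% of their bases lay in peaks. Of 106397 windows occupied in any library, 60519 (56.9%) were occupied in all 4, 12465 in 3, 12609 in 2 and 20804 in 1. Windows seen in a single library numbered 2932 and 8174 in Sham replicates 1 and 2, and 2958 and 6740 in FT replicates 1 and 2. The replicates numbered 2 held more windows of their own in both treatments, and did so on lists cut to equal size as well, with 7135 and 5537 against 3216 and 3515. Of the 60519 shared windows, 31569 (52.2%) were occupied in at least 1 library of each of the 24 other regions, and 161 (0.266%) were occupied in none of them. The windows without a counterpart elsewhere included 3 stretches of 2 kb, chr5:59369001-59371000, chr8:33041001-33043000 and chr9:77428001-77430000 (Rn5). Their gene context is not given because no annotation of that build was used here.

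Whether fluoxetine changed which windows were acetylated was asked by counting windows that separate the libraries 2 against 2, occupied in both libraries of one side and in neither of the other. The split by treatment was compared with the split by replicate number and the crossed split (FT replicate 1 and Sham replicate 2 against the others). On full lists 4013 windows (3.77% of those occupied) separated FT from Sham, 2070 of them (1.95%) higher in FT and 1943 (1.83%) in Sham. The replicate split gave 4474 windows (4.21%) and the crossed split 4122 (3.87%). Treatment thus separated fewer windows than either of the other splits. Set against the average of the replicate and crossed splits, the treatment split had a log2 ratio of -0.10 (exact permutation test, one-sided, p = 1). Compared with the crossed split alone, which keeps the replicate number as a block, it was -0.04 (exact, p = 1, smallest possible 0.5).

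The replicate split was lopsided on full lists, with 1092 windows (1.03%) higher in replicate 1 and 3382 (3.18%) higher in replicate 2. Lists were therefore cut by maxScore to 48578 peaks each, the length of the shortest of the 4. On these equal-size lists 3904 windows (3.8% of 102812) separated FT from Sham, against 4008 (3.9%) by replicate number and 3969 (3.86%) crossed, a log2 ratio of -0.03 (exact permutation test, one-sided, p = 1). Windows higher in FT numbered 2062 (2.01%) and windows higher in Sham 1842 (1.79%), a log2 ratio of 0.16 (exact permutation test, two-sided, p = 1). The replicate split held 1376 windows (1.34%) higher in replicate 1 and 2632 (2.56%) higher in replicate 2, and the crossed split 1793 (1.74%) and 2176 (2.12%), so each was more uneven than the treatment split. The sign of the split ratio (log2) was not stable. With all 4 libraries on equal-size lists it was 0.0223 when any overlap of 1 bp counted and 0.0421 with peak centres. Without Sham replicate 1, a comparison of 1 library against 2, it was 0.37 on equal-size lists and 0.36 on full lists. Without Sham replicate 1 the log2 ratio of windows higher in FT to windows higher in Sham was -0.66, and without FT replicate 1 it was 0.87.

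Among stronger peaks the treatment split fell further below the others. With the 10000 best peaks of each list, 836 windows separated FT from Sham, 1096 separated the replicate numbers and 1061 the crossed sides, a log2 ratio of -0.37 (exact permutation test, one-sided, p = 1). With the 5000 best peaks the counts were 429, 712 and 611, a log2 ratio of -0.62. Windows higher in FT were the majority of the treatment split at both depths, 497 against 339 and 263 against 166. At 10000 peaks that is a log2 ratio of 0.55 and at 5000 peaks one of 0.66.

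**Figure D2:**
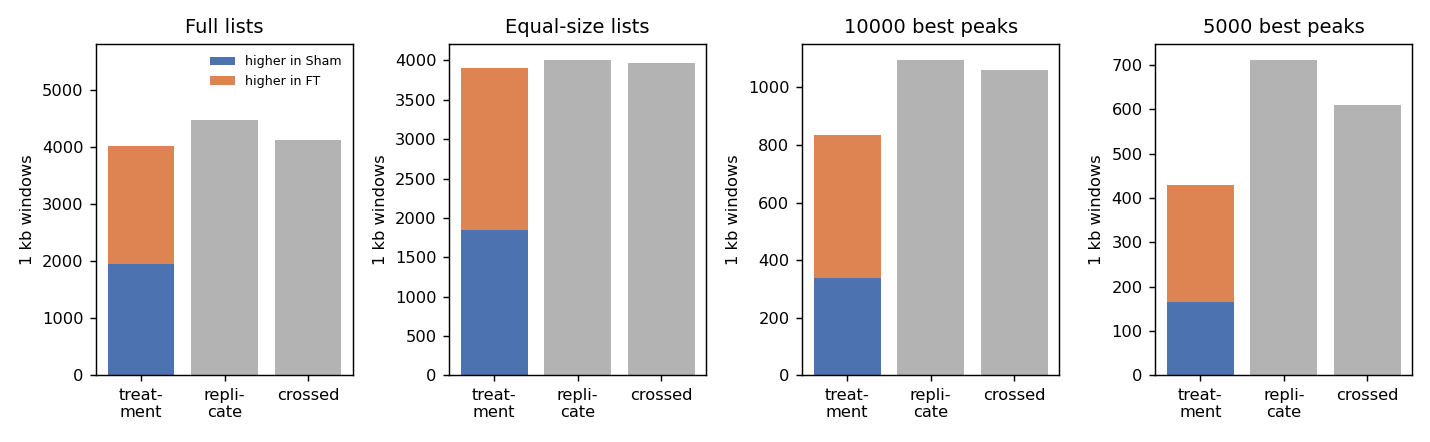
Number of 1 kb windows that separate the 4 insular libraries 2 against 2, for full lists, equal-size lists of 48578 peaks and the 10000 and 5000 best peaks by maxScore (each panel has its own axis, from 0). The treatment bar is divided into windows higher in Sham (blue) and in FT (orange), and the grey bars are the replicate and crossed splits; the treatment bar is the lowest in each panel, 3904 against 4008 and 3969 on equal-size lists.

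The overlap of whole lists gave the same order. On equal-size lists the Jaccard index was 0.729 between the Sham replicates and 0.750 between the FT replicates. It was 0.762 between the replicates numbered 1, 0.758 between Sham replicate 1 and FT replicate 2, 0.722 between Sham replicate 2 and FT replicate 1, and 0.721 between the replicates numbered 2. The 3 lowest values are the 3 pairs that contain Sham replicate 2. Same-treatment pairs exceeded FT-Sham pairs by -0.001 on average (exact permutation test, one-sided, p = 1), and by 0.0285 without Sham replicate 1. Sham replicate 1 was closer to both FT libraries than to its own replicate.

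**Figure D3:**
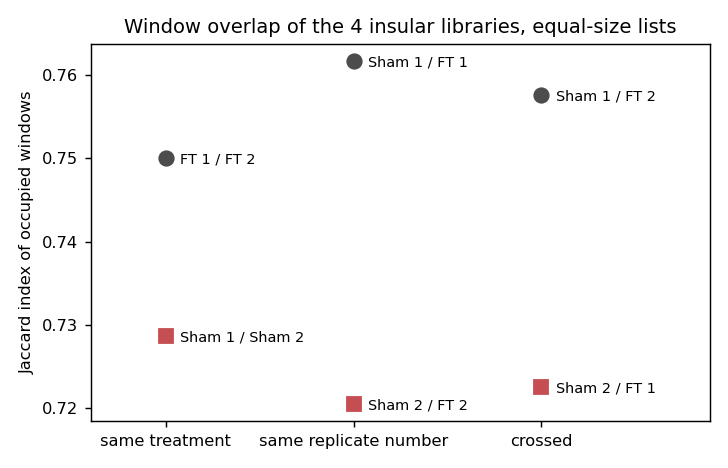
Jaccard index of occupied 1 kb windows on equal-size lists for the 6 pairs of insular libraries, grouped by what the pair shares (the axis does not start at 0). Pairs with Sham replicate 2 are red squares, at 0.721 to 0.729, and pairs without it are grey circles, at 0.750 to 0.762.

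The windows that separated the libraries lay in weak and narrow peaks, by treatment as by replicate number. Where higher in FT, their peaks stood at a median maxScore percentile of 26.5 and 27.4 in the 2 FT lists, and where higher in Sham at 24.6 and 27.2 in the 2 Sham lists. Windows occupied in all 4 lists stood at 68.9 to 69.2. Peak width was 1300 and 1400 bp for windows higher in FT and 1200 and 1400 bp for windows higher in Sham, against 1900 to 2000 bp for shared windows. Of the windows higher in FT, 72.6% held some peak base of a full Sham list, and 11.4% were at least 50% covered in one, so that they were lost from Sham through the cut by maxScore. For windows higher in Sham these shares were 70.6% and 11.9% of the FT lists. The replicate split gave 77.8% and 24.9% for windows higher in replicate 1, and 73.7% and 2.47% for windows higher in replicate 2. Its windows had median maxScore percentiles of 23.3 to 34.0 and peak widths of 1200 to 1500 bp.

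Position relative to shared sites was described by the share of separating windows that adjoin a window occupied in all 4 libraries. This edge share was 36.3% for the treatment split, 43.7% for the replicate split and 40.1% for the crossed split, a difference of -5.62 percentage points from the average of those splits (exact permutation test, two-sided, p = 0.333, the smallest it can give). The difference was -3.54 points on full lists, and its sign turned with 5 kb windows, to 1.41, and with the 10000 best peaks, to 0.0137. It ranged from -3.19 to -0.977 points when 1 library was left out, with the smallest size without Sham replicate 2. Isolated windows, more than 10 kb from any window shared by all 4 libraries, made up 38.1% of those higher in FT and 37.6% of those higher in Sham.

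Separating windows were scattered. They formed 2004 runs of adjoining windows in the FT direction, 97.1% of them single windows, and 1794 runs in the Sham direction, 97.4% of them single. The longest run was 2 kb in the FT direction and 3 kb in the Sham direction. In bins of 1 Mb, at most 7 windows higher in FT shared a bin, one of 5 such bins being chr1:79000001-80000000, which held 119 occupied windows. The bin with most windows higher in Sham was chr13:55000001-56000000, with 8 among 116 occupied windows. The replicate split reached 7 and 8 windows per bin in its 2 directions.

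By chromosome, the share of separating windows that were higher in FT was highest on chromosome 5, at 64.0% (158 against 89 windows), and on chromosome 8, at 60.7% (130 against 84). It was lowest on chromosome 4, at 44.6% (112 against 139), and on chromosome 3, at 46.4% (117 against 135). In the replicate split the share higher in replicate 1 ran from 23.7% on chromosome 18 to 41.4% on chromosome 12. The chromosomes were ranked by the values given here, so no test is made of them.

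**Figure D4:**
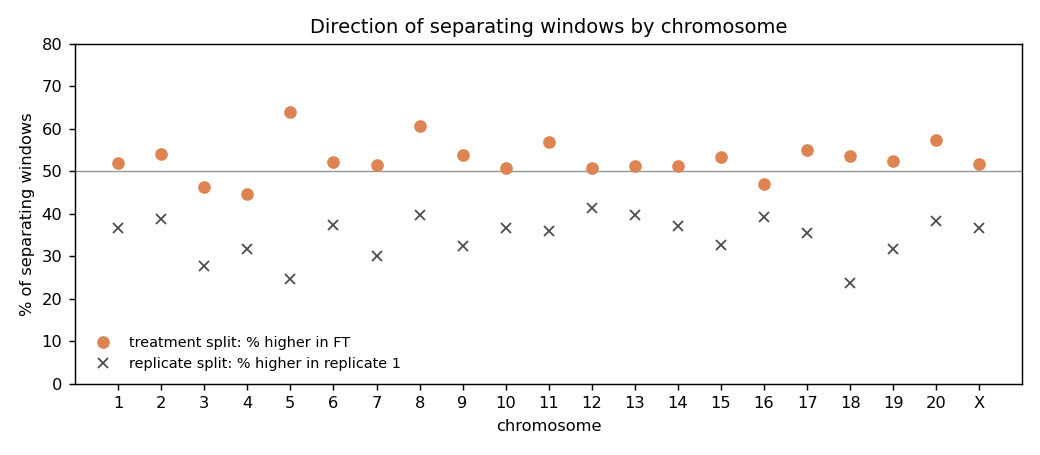
Share in percent of separating 1 kb windows on equal-size lists that are higher in FT (orange circles, treatment split) or higher in replicate 1 (grey crosses, replicate split), by chromosome, with a line at 50%. The treatment shares run from 44.6% on chromosome 4 to 64.0% on chromosome 5, and the replicate shares lie below 50% on every chromosome.

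The longest runs are the extreme of the separating windows, since 97.1% and 97.4% of runs were single windows. Peaks at the named loci had mean maxScore percentiles of 41.0 to 61.3, against medians of 24.6 to 27.4 over all separating windows. The naming rule took 5 in each direction from 58 FT runs and 47 Sham runs of at least 2 kb, by the number of windows that also separate on full lists and then by maxScore. At chr20:5251001-5253000 peaks covered 85% and 80% of the 2 kb in the FT replicates and no base in either Sham replicate. The FT peaks had Norm-tag-counts of 5 and 4 and −log10 p of 16.9 and 20.2. In other regions at least 50% of this locus was covered in 33 of 45 FT libraries and 10 of 45 Sham libraries, and in the cingulate, prelimbic (PLC) and infralimbic (ILC) cortex in 6 of 6 FT and 0 of 6 Sham libraries. The Sham lists of these 3 regions are shorter, at 19378 to 42094 peaks against 48045 to 54505 in FT. Over all windows higher in FT in insular cortex, their full lists occupied a mean of 44.1% in FT and 11.7% in Sham, and over windows higher in Sham 45.4% and 11.7%. In all other regions the shares at windows higher in FT were 34.8% and 20.1%.

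At chr1:219061001-219063000 the FT replicates were covered over 80.4% and 92.2%, against 3.75% and 0% in Sham. The peak of Sham replicate 1 that reached into this locus had a Norm-tag-count of 7 and −log10 p of 13.65. The FT peaks had Norm-tag-counts of 6 and 6 and −log10 p of 9.55 and 19.22. In other regions 0 of 45 FT and 0 of 45 Sham libraries covered at least 50% of the locus. At chr3:48255001-48257000 coverage was 99.0% and 100% in FT and 22.2% and 10% in Sham, where peaks reached into part of the locus. It was covered to at least 50% in 40 of 45 other FT libraries and 22 of 45 other Sham libraries. At chr5:109375001-109377000 the FT replicates had 60% and 80% and the Sham replicates 40% and 0%. At chr12:15725001-15727000 the values were 75% and 85% in FT and 0% and 20% in Sham. The last pair of loci were covered to that extent in 6 and 22 of 45 other FT libraries and in 3 and 14 of 45 other Sham libraries.

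In the Sham direction the only run of 3 kb lay at chr8:24666001-24669000. Peaks covered 92.4% and 92.5% of it in the Sham replicates, 0% in FT replicate 1 and 9.97% in FT replicate 2. It was covered to at least 50% in 2 of 45 other Sham libraries and 5 of 45 other FT libraries. At chr19:34137001-34139000 Sham coverage was 85% and 99.1%, and FT coverage was 40% and 0%. At chr6:7276001-7278000 the Sham replicates had 60% and 100% and the FT replicates 22.1% and 40%, with −log10 p of up to 22.0 in FT replicate 2. At chr1:161525001-161527000 the values were 55% and 75% in Sham and 0% and 45% in FT, and at chr11:38710001-38712000 they were 60% and 65% in Sham and 0% and 40% in FT. These last 4 loci were covered to at least 50% in 4 or 5 of 45 other FT libraries and 0 to 4 of 45 other Sham libraries each. At 7 of the 10 named loci at least 1 library of the opposite group had peaks over 20% or more of the locus.

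Whether the separating windows recurred elsewhere was asked in the 20 other regions with 2 libraries per treatment, each cut to the shortest list of its region. These regions come from the same pools of animals, so the values are given without a test. At windows higher in FT in insular cortex, 24.3% were occupied on average in other FT libraries and 18.4% in other Sham libraries. At windows higher in Sham the corresponding shares were 22.9% and 18.0%. FT exceeded Sham at both kinds of window, by 5.93 and 4.91 percentage points. Windows occupied in all 4 insular libraries showed the excess too, at 66.6% in other FT and 59.5% in other Sham libraries, or 7.08 points. The difference between windows higher in FT and windows higher in Sham was 1.02 ± 1.13 points (SD, n = 20 regions), above 0 in 15 of 20. It was above 0 in all 3 of CGC, PLC and ILC.

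The same reading of the other splits gave values of like size. Windows chosen by the crossed split moved by 1.61 ± 2.19 points in the crossed contrast of the other regions, above 0 in 19 of 20, and windows chosen by replicate number by 0.517 ± 2.30 points in the replicate contrast, above 0 in 10 of 20. The treatment value was 2.64 without Sham replicate 1, 3.18 without Sham replicate 2, -0.582 without FT replicate 1 and -1.20 without FT replicate 2. Its sign thus followed the treatment that lost a library. With 1 library against 2, the windows of the lone side rest on a single list. These values are therefore not of like kind with the value from all 4 libraries and do not test single libraries.

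**Figure D5:**
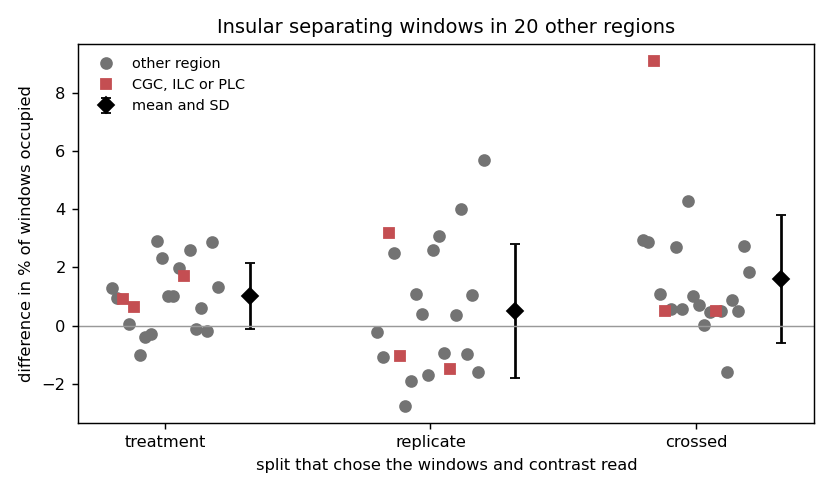
Difference in the percent of windows occupied, in each of 20 other regions, between windows that the insular libraries placed on one side and on the other side of the treatment, replicate or crossed split, read in the same contrast of that region. Each point is a region, red squares are CGC, ILC and PLC, and diamonds with bars are the mean and SD, 1.02 ± 1.13 points for treatment, 0.517 ± 2.30 for replicate and 1.61 ± 2.19 for crossed.

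To compare signal at matched sites, stretches covered by a peak in at least 2 of the 4 libraries were joined into 53640 elements over 85.5 Mb. Of these, 40677 had a peak in all 4 libraries, with a median width of 1800 bp, 6414 in 3 libraries with a median of 1011 bp, and 6549 in 2 libraries with a median of 700 bp. Ranks of the Norm-tag-count over the 40677 elements correlated between libraries at Spearman's rho of 0.926 to 0.944, a description across elements that share position and sequence. The 3 lowest values again belonged to the pairs with Sham replicate 2. Peak centres at elements with a single peak lay a median of 88 to 100 bp apart, and 77.3% to 83.0% lay within 200 bp.

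No element was called by Norm-tag-count rank in the planned fit. Ranks were turned into normal scores, on which 1 unit is 1 standard deviation of the elements of a library, and tested with limma. None passed an adjusted p of 0.05 (0 of 40677, 0%, lowest adjusted p = 0.131), and 2150 (5.29%) had an unadjusted p under 0.05, of which 1528 were higher and 622 lower in FT. The same fit of the replicate numbers gave 3011 (7.4%) and of the crossed sides 2586 (6.36%) at the unadjusted threshold, with 0 called after adjustment in either. With maxScore in place of the Norm-tag-count, 0 were called and 1984 (4.88%) had an unadjusted p under 0.05, 995 higher and 989 lower in FT.

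The count of calls depended on how the spread was estimated. With the replicate number as a block 88 elements were called, 45 higher and 43 lower in FT. In that fit all elements took the same spread, so differences between an element's own replicates did not enter its error. Without Sham replicate 1 there were 460 calls among 42198 elements and without Sham replicate 2 there were 507 among 42405, whereas without either FT library there were 0. Over the same 40677 elements these counts were 380 and 434. These fits leave 1 residual degree of freedom, and a lone Sham library is then assumed to vary like the FT libraries. Where a Sham library was left out, all elements again took the same spread. Where an FT library was left out, they did not. With maxScore, the blocked fit and each fit that left out a library called 0. A fit in which the spread follows the mean score, chosen after the data were seen, called 3 elements, and 2 with the replicate block. Over the 40677 elements it called 225 without Sham replicate 1, 319 without Sham replicate 2 and 0 without either FT library.

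The strongest of these lay at chr1:47200026-47201092. Its Norm-tag-count was 9 and 8 in the Sham replicates and 4 in both FT replicates, and its peaks were 1000 and 1200 bp wide in Sham and 700 bp in both FT replicates. Its maxScore stood at percentiles of 42.3 and 66.9 in the Sham libraries and 34.0 and 26.9 in the FT libraries, so that Sham was higher and the groups did not overlap on these 3 measures. The element was picked by its Norm-tag-count in these libraries, and the 3 measures describe the same peaks. Over all elements the groups did not overlap at 30.2% by Norm-tag-count rank and at 17.7% by width. The normal score was lower in FT by -1.65 ± 0.223 (SE, limma, adjusted p = 0.472, and 8.09e-07 with the replicate block). With the spread following the mean score its adjusted p in limma was 3.73e-09, and 2.10e-08 with the block. In other regions it held a peak in 39 of 45 Sham and 44 of 45 FT libraries, with median Norm-tag-count percentiles of 59.9 and 56.4.

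The other elements called by that fit were higher in FT. At chrX:69636136-69639135 the Norm-tag-count was 9 and 7 in Sham and 12 and 10 in FT (difference 0.68 ± 0.201, SE, limma adjusted p = 0.655 in the planned fit and 0.391 with the block). With the trend the SE was 0.131 and the adjusted p in limma was 0.00424, and 0.00626 with the block. Its maxScore percentiles overlapped between the groups, at 18.2 and 46.3 in Sham and 28.6 and 15.5 in FT. At chr18:62895010-62896010 the values were 5 and 2 in Sham and 6 and 5 in FT, where Sham replicate 2 is the lowest. Its adjusted p in limma was 0.655 in the planned fit and 4.52e-09 with the block, against 0.00719 with the trend (difference 1.85 ± 0.369, SE) and 0.178 with both.

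Elements with the lowest p in the planned fit differed by small whole numbers. All 10 named by that rule were called with the replicate number as a block (limma adjusted p from 1.59e-10 to 0.00511), and none in the planned fit. They were picked by p in the same libraries, so the blocked calls are no separate support. The 5 that were higher in FT had Norm-tag-counts of 2 to 4 in Sham and 3 to 5 in FT, and the first, at chr14:104913391-104914194, had 3 and 2 in Sham and 4 in both FT replicates (difference 1.86 ± 0.271, limma adjusted p = 0.598). Of the 5 that were lower in FT, the first lay at chr3:76197402-76199043 with 4 and 3 in Sham and 2 in both FT replicates (difference -2.02 ± 0.218, limma adjusted p = 0.131). Apart from the chromosome 1 element with 9 and 8, values in this direction were 3 to 5 in Sham and 2 to 3 in FT. The element at chr16:7700636-7700935 was lower in FT by Norm-tag-count, with 5 and 4 against 3 and 2, and higher by maxScore percentile, with 1.80 and 5.91 in Sham and 9.88 and 5.95 in FT.

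Elements whose groups did not overlap were also counted for each split. By Norm-tag-count rank they were 12287 (30.2%) for treatment, 14071 (34.6%) for the replicate numbers and 14298 (35.2%) for the crossed sides. An element whose ranks are untied between libraries always falls under a single split, be it treatment, replicate or crossed. Shares of this size therefore arise by construction and do not test whether treatment separates elements. The treatment count was the lowest of those listed. Within the treatment count 4737 (11.6%) were higher and 7550 (18.6%) lower in FT, the opposite balance to the 1528 higher and 622 lower at an unadjusted p under 0.05 in limma. The replicate count held 8011 (19.7%) higher and 6060 (14.9%) lower in replicate 1.

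Width at matched elements went with the replicate number. Elements with a single peak were wider in replicate 2 than in replicate 1 in 52.9% and narrower in 26.4% of cases in Sham, and in 50.7% and 24.3% in FT. Between FT and Sham libraries of the same number, FT was wider in 40.4% and narrower in 34.3% for replicate 1, and 39.6% and 36.9% for replicate 2. Groups did not overlap in width at 7186 elements (17.7%) for treatment, of which 4091 (10.1%) were wider and 3095 (7.61%) narrower in FT. The counts were 9152 (22.5%) for the replicate numbers and 7283 (17.9%) for the crossed sides. With limma no element was called by width (0 of 40677, 0%, lowest adjusted p = 0.643), and 2301 (5.66%) had an unadjusted p under 0.05, against 3342 (8.22%) for the replicate numbers and 2161 (5.31%) for the crossed sides.

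The most acetylated elements differed by less than the error. The element with the highest mean rank, at chr1:79605857-79608656, had Norm-tag-counts of 44 and 37 in Sham and 39 and 36 in FT, each at or next to the top of its list. The next were chr20:5997789-6000888, with 42 and 38 against 38 and 36, and chr12:15832535-15839005, with 43 and 34 against 36 and 33. Their differences in normal score were 0.05 ± 0.208, 0.01 ± 0.229 and -0.18 ± 0.203 (SE). The widest element, at chr19:70171119-70178018, measured 5200 and 5700 bp in Sham and 6800 and 6300 bp in FT (log2 difference 0.27, not called by limma). The chromosome 12 element was also among the widest, at 5500 and 6300 bp in Sham and 6600 and 6100 bp in FT. The remaining one, at chr10:106874625-106880483, went the other way, with 5600 and 5400 bp in Sham and 4700 and 4900 bp in FT. The 5 elements were covered in 43 or 44 of 45 Sham and 45 of 45 FT libraries of other regions. These include the HB lists, and whether the Sham library without a peak is one of them was not tested.

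Set beside the other neocortical regions, the insular lists had the smallest log2 ratio of peak number between treatments. Their like length was known when the region was chosen. The log2 ratio of peak number was 0.28 in CGC, 1.07 in PLC and 0.90 in ILC, and peak numbers did not overlap between the treatments in any of the 3. With lists of equal size the log2 split ratio was 0.98, 3.15 and 2.03 there, and windows higher in FT were 85.9%, 94.6% and 94.7% of the treatment split, against 52.8% in insular cortex. Among all 21 regions with 4 libraries, insular cortex had the ratio of peak number closest to 0 and the second lowest split ratio, after the ventral dentate gyrus (venDG) with -0.48. Over the 20 other regions the split ratio had a median of 1.07. Whether insular cortex differs from these regions in its response was not tested, because lists of unlike length within a region cannot be told apart from libraries of unlike depth or enrichment.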

How the data were processed

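Reads were aligned to Rn5 by the authors (BWA is named in the submitters' processing notes) and DFilter peaks were called per library. The deposited lists give maxScore and Norm-tag-count as scores, the authors' −log10 p-value and a false discovery rate in percent, which is 0 throughout. The sources used here give neither tool versions nor read depth. Starts were read as counting from 0 and printed counting from 1.

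Windows, equal-size lists, splits and elements were computed as described above (Python 3.11.15, numpy 2.4.6, pandas 2.3.3, scipy 1.17.1). Elements were tested with limma 3.58.1 (R 4.3.3), Benjamini-Hochberg threshold 0.05. In the planned fit each element kept a spread of its own, drawn toward a value common to all elements. On simulated data this fit recovered the changed elements but made more false calls than its threshold allows. A fit with the spread following the mean score did not, so it was added. The simulated elements shared 1 spread on the log2 scale, with no outlying library, no block and no library left out. The simulation therefore does not vouch for calls in such settings. With all 4 insular libraries, the added fit set an element's spread by its mean score alone. The named loci are the 5 longest runs per direction; the named elements are the 5 lowest p per direction, the 3 highest ranked and the 3 widest; the named chromosomes are the 2 highest and 2 lowest with at least 50 separating windows. Stretches without a counterpart elsewhere, megabase bins and the elements of the added fit were named after their values were seen. Members and lists were chosen with earlier results of these data known. Recurrence was read in the 20 other regions with 4 libraries; region names were joined without regard to case.

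The study's methods state that Sham and FT samples of a replicate went through the assay side by side, so the numbers pair libraries. The difference between replicates in Sham correlated with that in FT at -0.006 over windows and 0.004 over elements. No annotation of Rn5 was used, so genes, sequences and marker genes are not given. The 4 input libraries entered no comparison. Alternatives were other windows, cuts, thresholds and scores, the block, and leaving out each library.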

Additional observations from a re-analysis of the deposited data

How the results depend on the processing

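Peak number and covered length kept a log2 ratio within 0.1 of 0 in each alternative: leaving out 1 library gave -0.0867 to 0.0580 for peak number and -0.0776 to 0.0677 for covered length, and equal-size lists gave 0.00231 for covered length. Median width gave 0 when any library was left out. The split ratio ranged with 1 library left out from -0.27 to 0.36 on full lists and from -0.21 to 0.37 on equal-size lists, where any overlap of 1 bp gave 0.0223 and peak centres 0.0421. The Jaccard difference ranged from -0.0134 to 0.0285, and was 0.000266 with any overlap and 0.00127 with centres. The direction of separating windows ranged from -0.89 to 1.14 on full lists and from -0.66 to 0.87 on equal-size lists. It reversed to -0.23 and -0.21 with 5 kb windows, and on full lists to -0.0704 with any overlap and -0.0194 with centres. With the 10000 and 5000 best peaks it was 0.55 and 0.66. The edge share difference ranged from -3.19 to -0.977, and was 1.41 points with 5 kb windows and 0.0137 with the 10000 best peaks. Recurrence ranged from -1.20 to 3.18 points and was 6.06 with 5 kb windows. The cause of these changes was not tested. Elements called by Norm-tag-count rank ranged from 0 to 507 with 1 library left out, and numbered 88 with the replicate block, 3 with the spread as a trend of the mean and 2 with both, and with that trend 225 without Sham replicate 1 and 319 without Sham replicate 2. Peak width gave 0 calls in each fit. The replicate block changed no other call. Named elements that reversed were the chromosome 16 element to 0.41 with maxScore, and chr1:208309321-208311020 to 0.19 with the Norm-tag-count per kb of peak. Precision is limited by 2 libraries per group and by whole-number Norm-tag-counts with 34 to 43 distinct values per list.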
